A study of Mus musculus with 6 samples.

Results

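The genes described here encode the 2-oxoglutarate-dependent dioxygenases, enzymes that use molecular oxygen, iron and 2-oxoglutarate to oxidise a substrate. They were found by gene symbol alone. The rule took the Kdm2 to Kdm8 lysine demethylases, Tet1 to Tet3, Alkbh1 to Alkbh8, P4ha1 to P4ha3, Plod1 to Plod3, every Jmjd gene, and Fto, Hif1an, P4htm, Phf2, Phf8, Jarid2, Hr, Tyw5, Phyh and Ogfod1 to Ogfod3, with 3 sex-chromosome demethylase genes, Kdm5c, Kdm5d and Kdm6a, left out by name. It found 46 genes among the 11922 rows of the count table. All 46 passed the low-count filter, as did nearly all rows, so that 11759 genes were tested. P4ha3 was not a row of the table used here, and the sources used do not state whether genes had been filtered before.

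RNA was sequenced from splenic CD8+ T cells of C57BL6/J mice on day 7 of culture. By the study's methods, CD8+ T cells were purified from spleen on a magnetic column through an antibody to CD8α. The cells had been activated with beads carrying antibodies to CD3 and CD28 in IL-2 at 100 units per ml, and were then expanded in IL-2 without the beads. One group received water as vehicle throughout and the other 0.25 mM AOA (aminooxyacetic acid), an inhibitor of enzymes that use the active form of vitamin B6, pyridoxal phosphate, as cofactor. Cells of each of 3 donor mice were split over both conditions, which gave 3 libraries with vehicle and 3 with AOA, numbered here by mouse. No genotype or allele differed between the groups.

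A 2-oxoglutarate-dependent dioxygenase splits 2-oxoglutarate into succinate and carbon dioxide while it places 1 oxygen atom on its substrate. On a methylated lysine or base the hydroxylated methyl group leaves as formaldehyde, which removes the mark, and on proline, lysine or asparagine the hydroxyl group stays. Succinate, fumarate and 2-hydroxyglutarate compete with 2-oxoglutarate at the active site, and the Jumonji C (JmjC) domain is the catalytic fold of most histone demethylases of the family. In T cells these enzymes act on histone and DNA methylation during differentiation and on the oxygen response through HIF1.

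Total counts per library lay between 12881962 and 21997078. The libraries of a group, cultures of different mice, were compared by a chi-square per gene, whose reference covers counting error only. It was 10.02 between vehicle 1 and vehicle 3 and 10.5 between AOA 2 and AOA 3, and 55.1 to 71.1 in the pairs that held vehicle 2 or AOA 1. Vehicle 2 and AOA 1 thus stood apart from the others of their groups. All 6 markers of CD8 T cells were present, and their summed level was 3304 to 4213 CPM (counts scaled to library size) with vehicle and 4251 to 4984 with AOA. Within that list Cd8a (log2 fold change 1.03) and Cd8b1 (0.64) were raised, Cd2 was lowered (-0.61), and Cd3d, Cd3e and Cd3g were not called. The median of all 6 was -0.20. The 4 listed CD4 T cell markers summed to 158 to 211 CPM with vehicle and 33.0 to 54.3 with AOA, and Cd4, Zbtb7b and Cd40lg were lowered while Foxp3 was not called. Of 7 myeloid markers 4 were in the table, Itgax, Lyz2, Cd14 and Mpeg1, with a sum of 23.8 to 45.6 CPM with vehicle, most of it Itgax, and 1.46 to 4.07 with AOA. Itgax was lowered, Mpeg1 was not called, Lyz2 and Cd14 were too low to be tested, and Csf1r, Adgre1 and Clec9a were not rows of it. B cell markers summed to 12.6 to 16.6 CPM and 22.6 to 30.7 CPM, and NK cell markers to 145 to 308 CPM and 128 to 213 CPM, in the same order. Most of the NK sum was Eomes, which was not called, while Klrb1c was lowered from 57.7 to 7.14 CPM in the means. Of 5 erythroid markers 0 were in the table, and of 7 stromal markers 1, Pdgfrb, at 2.77 to 3.81 CPM with vehicle and 0.05 to 0.21 with AOA.

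The first question was which of these genes changed in RNA level under AOA. With AOA, 5 of the 46 genes were raised and 19 lowered, at an adjusted p under 0.05 in the quasi-likelihood test of edgeR fitted across all genes, and 22 were not called. The genes called were 52.2% of the members, beside 53.0% of all genes tested, so the share called was near the background. The split was 10.9% raised and 41.3% lowered in the members, beside 26.2% raised and 26.8% lowered over all genes. The median log2 fold change of the members was -0.35, beside -0.02 over all genes. The levels of the 3 AOA libraries lay wholly above or below those of the 3 vehicle libraries for 30 members, or 65.2%, beside 62.1% of all genes. The groups did not overlap in any of the 24 called members, which fixes the called direction in each of the 3 mice. Since the RNA comes from whole cultures, fewer cells of a type and less RNA per cell cannot be told apart. The CD4 marker sum, the myeloid sum through Itgax, Klrb1c and Pdgfrb were also lower with AOA, and their part in these differences was not tested.

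The count of lowered members was 11 without vehicle 1, without vehicle 3 or without AOA 3, and 18 at most when any 1 library was left out. The count over all genes moved too, from 3147 lowered genes to 2433, 2517 and 2461 in these 3 refits. Without both vehicle 2 and AOA 1, an alternative added once the data had been seen, 23 were lowered and 7 raised, with all 24 called members among them, and over all genes 3862 were lowered and 3976 raised, beside 3147 and 3086 with all libraries. The 15 members called in every refit that tested them, at the same threshold, were Kdm4d, Kdm5b, Kdm7a, Kdm2b, Jmjd1c, Kdm6b, Kdm4a, Kdm5a, Kdm3b, Jarid2 and Hif1an among the lowered and Hr, Kdm8, P4ha1 and Jmjd6 among the raised. When a log2 fold change of at least 1 was also required, 8 members were called, Kdm4d, Kdm5b, Kdm7a, Kdm2b, Jmjd1c, Kdm6b, Hr and Kdm8, or 17.4% of the members, beside 26.2% of all genes.

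**Figure D1:**
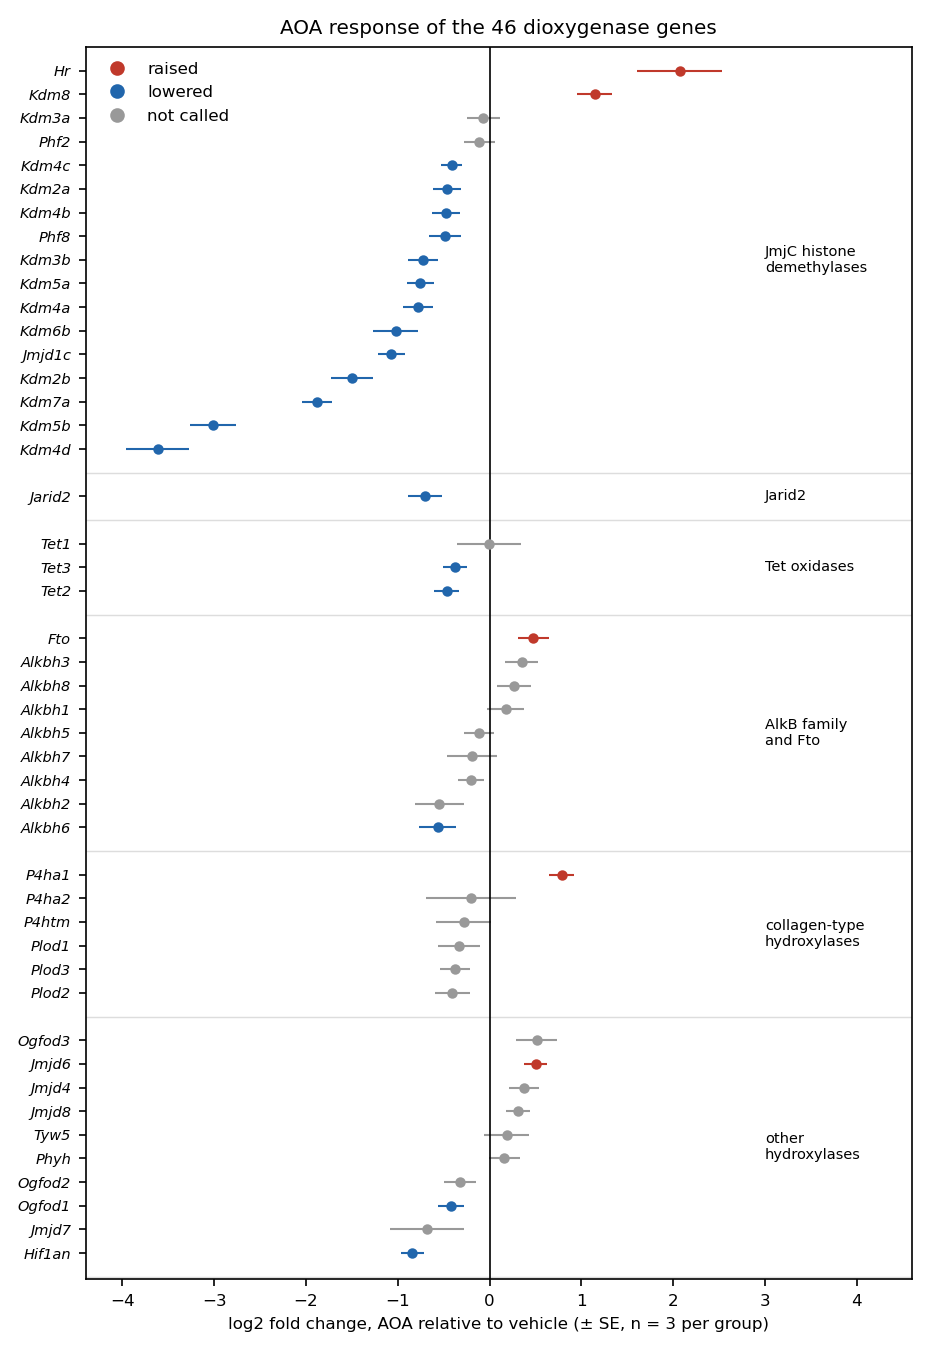
Log2 fold change of each of the 46 genes, AOA relative to vehicle, with bars of 1 SE from the edgeR fit (n = 3 libraries per group), grouped by the substrate of the enzyme. Red genes were raised, blue lowered and grey not called; 13 of the 17 JmjC demethylase genes lie on the left as lowered, with Kdm4d at -3.62 and Kdm5b at -3.01, and Hr lies farthest right at 2.07.

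Most of the lowered members were JmjC genes. Of the 17 JmjC histone lysine demethylase genes 13 were lowered, 2 were raised (Hr and Kdm8) and 2 were not called (Kdm3a and Phf2), and their median log2 fold change was -0.73. That is 76.5% lowered and 11.8% raised, beside 26.8% and 26.2% of all genes tested. Of the 3 Tet genes 2 were lowered, and Jarid2 was lowered. Of the 9 genes of AlkB proteins and Fto 1 was raised and 1 lowered, of the 6 hydroxylases of the secretory pathway 1 was raised and 0 lowered, and of the 10 other hydroxylases 1 was raised and 2 lowered. The share called was 66.7% of the Tet genes, 22.2% of the AlkB genes and Fto, 16.7% of the secretory pathway hydroxylases and 30.0% of the other hydroxylases, beside 53.0% of all genes tested. The summed TPM (counts scaled to gene length and to the library's total) of the 17 JmjC genes were 668, 592 and 642 in vehicle 1, 2 and 3 and 295, 471 and 419 in AOA 1, 2 and 3. Every AOA sum lay below every vehicle sum, with AOA 1 the lowest, and the ratio of the means was 0.623. The summed TPM of the AlkB genes and Fto was 228 ± 0.317 (SD, n = 3) with vehicle and 225 ± 12.1 with AOA, and the groups overlapped, as they did for the secretory pathway hydroxylases and the other hydroxylases.

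Kdm5a and Kdm5b remove di- and trimethyl marks from lysine 4 of histone H3, a mark of active promoters. Kdm5b stood at 123, 80.3 and 110 CPM in vehicle 1, 2 and 3 and at 9.47, 17.4 and 12.0 CPM in AOA 1, 2 and 3. The lowest vehicle library was several times above the highest AOA library, and Kdm5b fell by 3.01 ± 0.25 (SE) on the log2 scale (edgeR adjusted p = 3.15e-05). Kdm5a stood at 238, 180 and 228 CPM with vehicle and 118, 137 and 128 CPM with AOA, without overlap, and fell by 0.76 ± 0.15 (edgeR adjusted p = 0.00253). In TPM, Kdm5b made up 45.5% ± 1.85 (SD, n = 3) of the sum of both genes with vehicle and 14.8% ± 3.01 with AOA. The shares did not overlap, and the difference of 30.7 percentage points had an exact two-sided permutation p = 0.1, the smallest that 3 against 3 libraries allow, or 0.208 adjusted over the 27 shares compared.

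Promoters are shown for Kdm5b, Kdm7a and Kdm8, those of the 3 most lowered and 3 most raised members whose window has a RefSeq entry and lies outside the annotated gene. They were searched for the core ACGTG, read on either strand, which HIF transcription factors can bind, and each holds 1 copy. The windows are the 250 bases before the RefSeq start on GRCm38.p6, written 5′ to 3′ on the strand of the gene, with the core in capitals. Kdm5b lies at chr1:134559928-134560177 on the + strand, Kdm7a at chr6:39206774-39207023 on the - strand and Kdm8 at chr7:125444370-125444619 on the + strand.
Kdm5b (lowered): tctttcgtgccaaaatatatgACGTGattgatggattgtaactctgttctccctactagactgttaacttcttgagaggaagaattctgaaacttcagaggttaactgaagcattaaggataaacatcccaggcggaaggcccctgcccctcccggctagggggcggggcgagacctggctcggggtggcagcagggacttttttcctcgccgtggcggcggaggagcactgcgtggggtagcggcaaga
Kdm7a (lowered): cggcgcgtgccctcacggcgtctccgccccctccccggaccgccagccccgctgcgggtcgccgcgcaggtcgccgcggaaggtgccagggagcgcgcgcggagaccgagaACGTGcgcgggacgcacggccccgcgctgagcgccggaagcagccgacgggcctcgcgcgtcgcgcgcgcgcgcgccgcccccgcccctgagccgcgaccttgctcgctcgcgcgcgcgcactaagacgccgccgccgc
Kdm8 (raised): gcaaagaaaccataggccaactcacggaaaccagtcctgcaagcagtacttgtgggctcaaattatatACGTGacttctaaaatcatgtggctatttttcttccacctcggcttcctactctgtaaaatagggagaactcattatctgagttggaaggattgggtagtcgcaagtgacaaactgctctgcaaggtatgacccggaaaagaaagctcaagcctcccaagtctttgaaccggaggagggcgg
In windows of 250 bases before to 50 after the start, this core occurred in 13 of the 38 members with a RefSeq promoter, or 34.2%, beside 29.8% of 9438 genes tested and 19.6% of all 32851 promoters. It was held by 6 of 14 lowered and 3 of 4 raised members with a promoter, so it was present on both sides. Of the most changed members with a promoter that is not printed, P4ha1 held the core and Kdm4d did not. The longer palindrome CACGTG, which contains the core, occurred in 2 of 38, Alkbh7 and Kdm4c. That is 5.26%, beside 11.9% of the genes tested and 7.15% of all promoters. The GC box GGGCGG, read on either strand, occurred in 28 of 38 members, or 73.7%, beside 68.9% of the genes tested.

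Kdm2a and Kdm2b act mainly on dimethyl lysine 36 of histone H3, and Kdm2b also brings a Polycomb complex to unmethylated CpG islands. Kdm2b was at 166, 92.0 and 160 CPM with vehicle and 42.2, 56.7 and 49.0 CPM with AOA. Vehicle 2 was the lowest vehicle library but still lay above all AOA libraries, and Kdm2b fell by 1.501 ± 0.23 on the log2 scale (edgeR adjusted p = 0.000662). Kdm2a was lowered too, from 207 to 150 CPM in the means, by 0.46 ± 0.15 (edgeR adjusted p = 0.0285), a call it lost, with an adjusted p of up to 0.0997, in alternatives that included leaving out vehicle 1, vehicle 3 or AOA 3. The share of Kdm2b in the summed TPM of the pair was 46.9% ± 7.37 with vehicle and 30.8% ± 0.719 with AOA, again without overlap (exact permutation p = 0.1).

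Kdm3a, Kdm3b and Jmjd1c (also known as Kdm3c) act on mono- and dimethyl lysine 9 of histone H3, a repressive mark, and Hr encodes hairless, a corepressor of nuclear receptors from the same subfamily. Jmjd1c was at 194, 160 and 196 CPM with vehicle and 76.4, 94.5 and 90.8 CPM with AOA. It fell by 1.07 ± 0.15 on the log2 scale (edgeR adjusted p = 0.00037). Kdm3b was at 234, 184 and 227 CPM with vehicle and 105, 142 and 142 CPM with AOA, a fall of 0.73 ± 0.17 (edgeR adjusted p = 0.0054). Neither gene overlapped between the groups. Kdm3a ran from 170 to 180 CPM with vehicle and from 140 to 214 CPM with AOA, where AOA 2 was the highest, and it was not called (-0.07 ± 0.18). With a mean of 72.9 TPM under vehicle and 68.4 TPM under AOA, Kdm3a had the highest level per length of the 46 genes in both groups. Its share of the summed TPM of Kdm3a, Kdm3b and Jmjd1c went from 41.1% ± 3.70 to 54.2% ± 5.19, and that of Jmjd1c from 23.8% ± 1.31 to 15.98% ± 1.56 (exact permutation p = 0.1 for each). Hr had counts of 10, 3 and 10 with vehicle and 43, 34 and 51 with AOA, or 0.79, 0.19 and 0.54 CPM against 1.98, 1.80 and 2.57 CPM. The count of 3 in vehicle 2 is at the floor of what a library can show, and Hr was raised by 2.07 ± 0.46 on the log2 scale (edgeR adjusted p = 0.00486) from the lowest level of all members, 0.189 TPM.

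Kdm4a to Kdm4d remove trimethyl marks from lysine 9 of histone H3, and Kdm4a to Kdm4c also from lysine 36. All 4 were lowered, by unequal amounts. Kdm4d was at 6.75, 9.13 and 5.10 CPM with vehicle and 0.51, 0.69 and 0.50 CPM with AOA, from counts of 85, 144 and 94 against 11, 13 and 10. Its fall of 3.62 ± 0.34 on the log2 scale (edgeR adjusted p = 5.71e-05) was the largest change of any member. Kdm4a was at 145, 159 and 146 CPM with vehicle and 67.6, 95.0 and 99.2 CPM with AOA, with AOA 1 the lowest, and fell by 0.78 ± 0.16 (edgeR adjusted p = 0.00344). Kdm4b fell by 0.48 ± 0.15 (edgeR adjusted p = 0.0242) and Kdm4c by 0.41 ± 0.12 (edgeR adjusted p = 0.0152), and both calls were lost without vehicle 1, vehicle 3 or AOA 3, and that of Kdm4c without AOA 2, with adjusted p of up to 0.112 and 0.0822. Kdm4d was the smallest part of the family, with 4.31% ± 1.20 of its summed TPM with vehicle and 0.553% ± 0.088 with AOA.

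Kdm7a, Phf2 and Phf8 carry a PHD finger that reads trimethyl lysine 4 of histone H3 beside the JmjC domain, and act on lysines 9 and 27 of histone H3 or lysine 20 of histone H4. Kdm7a was at 186, 140 and 170 CPM with vehicle and 43.4, 51.9 and 39.4 CPM with AOA. The groups lay far apart, and Kdm7a fell by 1.88 ± 0.16 on the log2 scale (edgeR adjusted p = 3.83e-05). Phf8 fell by 0.49 ± 0.18 (edgeR adjusted p = 0.0417), and this call was lost, with an adjusted p of up to 0.172, in alternatives that included no low-count filter and leaving out vehicle 1, vehicle 3, AOA 1 or AOA 3. Phf2, at 54.0 ± 4.00 TPM with vehicle and 49.4 ± 13.6 TPM with AOA, was not called. In the TPM of the subfamily, Kdm7a went from 29.8% ± 1.05 to 12.2% ± 2.36 and Phf2 from 45.3% ± 0.993 to 61.6% ± 2.23, without overlap (exact permutation p = 0.1 for each), while the share of Phf8 overlapped.

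**Figure D2:**
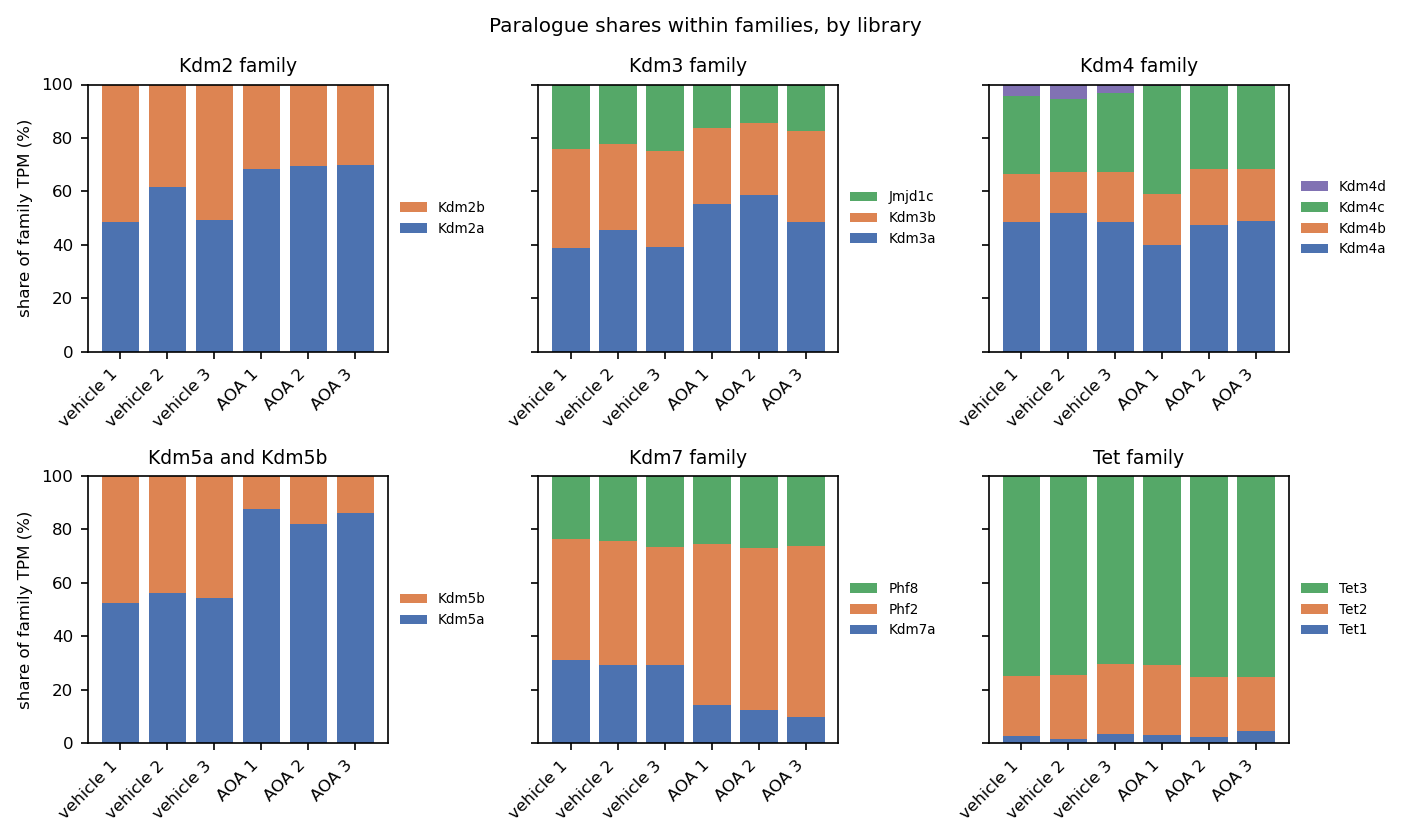
Share of each gene in the summed TPM of the genes named in its panel (vertical axis, percent) in each of the 6 libraries, for members of the Kdm2, Kdm3, Kdm4, Kdm5, Kdm7 and Tet families, without Kdm5c and Kdm5d. Kdm5b makes up 43.7% to 47.4% of the sum of Kdm5a and Kdm5b in the vehicle libraries and 12.3% to 18.1% in the AOA libraries, while Tet3 holds 70.3% to 75.3% in all 6 libraries.

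Kdm6b (also known as Jmjd3) removes the Polycomb mark from lysine 27 of histone H3. It was at 80.2, 37.9 and 65.1 CPM with vehicle and 26.6, 32.5 and 31.2 CPM with AOA. Vehicle 2 lay close above the AOA libraries, and Kdm6b fell by 1.02 ± 0.25 on the log2 scale (edgeR adjusted p = 0.00703). Within mice the log2 ratio was -1.59, -0.22 and -1.06 for mouse 1, 2 and 3. Jarid2, a JmjC protein without demethylase activity that joins the Polycomb repressive complex, was at 67.2, 51.7 and 70.0 CPM with vehicle and 30.9, 46.7 and 38.4 CPM with AOA. It fell by 0.70 ± 0.18 (edgeR adjusted p = 0.0107), with a log2 ratio of -0.14 in mouse 2. Kdm8 (also known as Jmjd5), described both as a demethylase and as a protein hydroxylase, was at 7.78, 6.59 and 6.30 CPM with vehicle and 13.3, 17.2 and 15.1 CPM with AOA. Every AOA library lay above every vehicle library, and Kdm8 rose by 1.15 ± 0.19 (edgeR adjusted p = 0.00107).

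**Figure D3:**
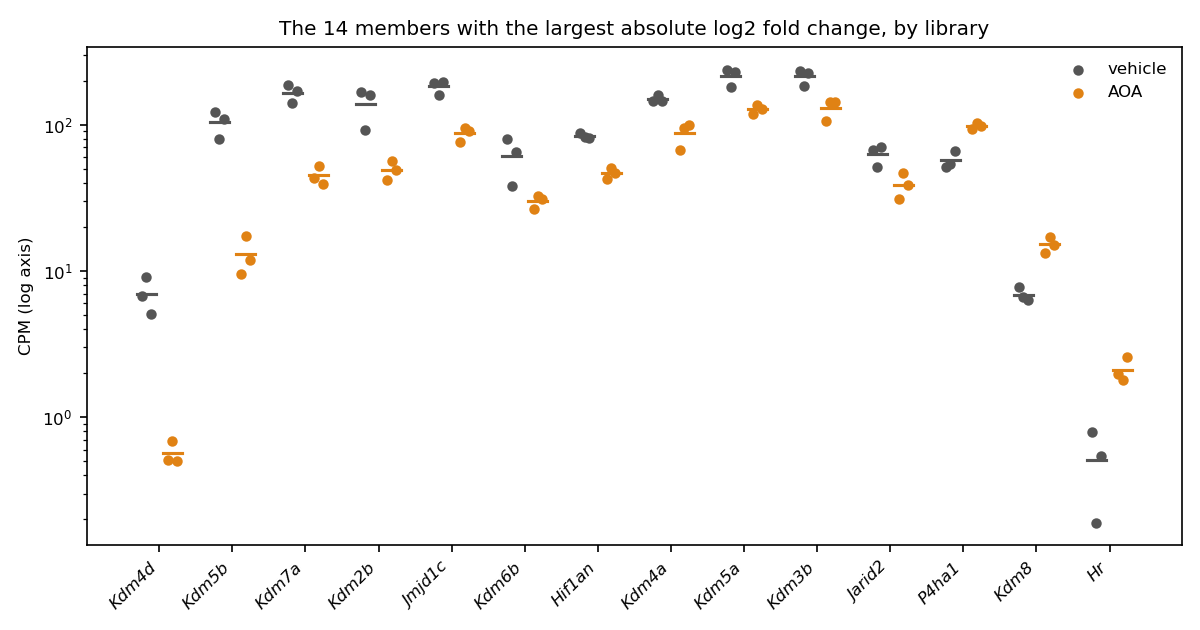
CPM in each library (log axis) of the 14 members with the largest absolute log2 fold change, with vehicle in grey, AOA in orange and the mean of 3 libraries as a line. In all 14 the 3 AOA libraries lie wholly on one side of the 3 vehicle libraries, above them for P4ha1, Kdm8 and Hr and below them for the other genes, with the smallest gaps in Kdm6b and Jarid2.

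Tet1, Tet2 and Tet3 oxidise 5-methylcytosine in DNA to 5-hydroxymethylcytosine and further. Tet3 was the main one per length, at 25.9 ± 1.79 TPM with vehicle and 19.6 ± 3.36 TPM with AOA, followed by Tet2 at 8.54 ± 0.342 and 6.01 ± 0.258 TPM. Tet2 fell by 0.47 ± 0.14 on the log2 scale (edgeR adjusted p = 0.0166) and Tet3 by 0.38 ± 0.13 (edgeR adjusted p = 0.0333). With the mouse as a replicate block the call of Tet3 was lost (edgeR adjusted p = 0.0615), and both were lost when a trend with gene length was removed, at log2 fold changes of -0.27 for Tet2 and -0.14 for Tet3. Both were lost without vehicle 1, vehicle 3, AOA 2 or AOA 3, and Tet3 without vehicle 2, with adjusted p of up to 0.0935 for Tet2 and 0.158 for Tet3. Tet1 was low, at 0.882 and 0.871 TPM, and its fold change was near 0 (-0.01 ± 0.35). The shares of the 3 genes in their sum overlapped between the groups, with Tet3 at 73.2% ± 2.55 and 73.7% ± 2.56.

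The AlkB proteins repair or edit alkylated bases in DNA and RNA or act on proteins, and Fto and Alkbh5 demethylate N6-methyladenosine of messenger RNA. Fto was raised from 42.1 to 58.6 CPM in the means, by 0.47 ± 0.17 on the log2 scale (edgeR adjusted p = 0.0399), a call that was lost, with an adjusted p of up to 0.147, without vehicle 1, vehicle 3, AOA 2 or AOA 3 and under a filter of at least 10 CPM in 3 libraries. Alkbh5, the other N6-methyladenosine demethylase and at 55.4 TPM with vehicle and 50.6 TPM with AOA the most abundant of the class, was not called (-0.12 ± 0.16). Alkbh6 was lowered from 11.9 to 8.04 CPM, by 0.57 ± 0.20 (edgeR adjusted p = 0.0393), and this call too was lost, with an adjusted p of up to 0.168, without vehicle 1, vehicle 3 or any 1 AOA library. The other AlkB genes were not called. Alkbh2 and Alkbh3, which repair alkylated bases in DNA, had log2 fold changes of -0.55 ± 0.26 and 0.35 ± 0.18. Alkbh1, Alkbh4, Alkbh7 and Alkbh8, of which Alkbh8 modifies transfer RNA and Alkbh7 acts in mitochondria, lay between -0.20 and 0.27, with means of 20.6, 27.8, 15.0 and 14.2 TPM under vehicle and 22.3, 23.6, 12.5 and 16.4 TPM under AOA.

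P4ha1 and P4ha2 are the catalytic subunits of collagen prolyl 4-hydroxylase. P4ha1 was at 51.6, 53.8 and 65.7 CPM with vehicle and 93.9, 103 and 98.6 CPM with AOA. Every AOA library was above every vehicle library, and P4ha1 rose by 0.78 ± 0.14 on the log2 scale (edgeR adjusted p = 0.00132). P4ha2 was at 9.84, 1.84 and 8.41 CPM with vehicle and 5.06, 6.66 and 5.70 CPM with AOA. Vehicle 2 lay far below the other vehicle libraries, and P4ha2 was not called (-0.20 ± 0.49). Without vehicle 2 it was called lowered, at a log2 fold change of -0.61 (edgeR adjusted p = 0.0322). Plod1, Plod2 and Plod3 hydroxylate lysine in collagen. They were not called, at log2 fold changes of -0.33, -0.41 and -0.38, and their shares of the summed TPM overlapped between the groups. P4htm, a prolyl hydroxylase anchored in the endoplasmic reticulum membrane, was at 2.82 and 2.25 TPM and was not called.

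Of 6 members listed here as hypoxia-induced genes, P4ha1 was raised, Kdm4b lowered, and Kdm3a, P4ha2, Plod1 and Plod2 were not called. That is 33.3% called, beside 53.0% of all genes tested, with 16.7% raised and 16.7% lowered, beside 26.2% and 26.8%. The list is not a full set of HIF1 targets, and Jmjd6 (raised) and Plod3 (not called), which the study places among HIF1-driven genes, are not in it. Hif1an, the asparagine hydroxylase that blocks the coactivator contact of HIF1 (factor inhibiting HIF), was at 88.3, 82.1 and 80.7 CPM with vehicle and 42.8, 50.7 and 46.6 CPM with AOA. The libraries of each group lay close together and the groups far apart, and Hif1an fell by 0.84 ± 0.13 on the log2 scale (edgeR adjusted p = 0.000608).

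Among the other hydroxylases, Jmjd6, a lysyl hydroxylase of splicing proteins, was raised from 33.4 to 47.4 CPM, by 0.50 ± 0.13 (edgeR adjusted p = 0.00861). Its mean level went from 41.5 ± 3.78 TPM to 57.2 ± 3.67 TPM, and with AOA only Kdm3a was higher among the members. Ogfod1, a prolyl hydroxylase of a ribosomal protein, was lowered by 0.42 ± 0.14 (edgeR adjusted p = 0.0315), a call lost, with an adjusted p of up to 0.11, in alternatives that included leaving out any 1 vehicle library or AOA 3. Jmjd4, Jmjd8 and Ogfod3 had positive log2 fold changes of 0.37, 0.31 and 0.51 with AOA above vehicle in every library, and none was called. Jmjd7 (-0.68 ± 0.40) and Ogfod2 (-0.32 ± 0.17) were not called either. Phyh, the peroxisomal phytanoyl-CoA hydroxylase, and Tyw5, which hydroxylates the wybutosine base of transfer RNA, were at 25.4 and 11.4 TPM with vehicle and 27.5 and 12.3 TPM with AOA and were not called.

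Neighbours that share exon bases can affect the counts of some members. On opposite strands this depends on the strand setting of the counting, which the sources used here do not state. In GENCODE gene models 6 members share more than 10% of their exon bases with a gene of the table. They are Jmjd7, with 66.7% in a readthrough gene on the same strand, Jmjd8 with 39.3%, Alkbh2 with 29.5%, Tyw5 with 25.6%, Ogfod3 with 17.0% and Plod3 with 11.7%, the last 5 on the opposite strand. None of these 6 was among the called members. Of the called members, Kdm3b shares 24.6% with a long noncoding RNA on the opposite strand and Alkbh6 11.9% with a small RNA on the same strand, neither of them a row of the table.

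**Figure D4:**
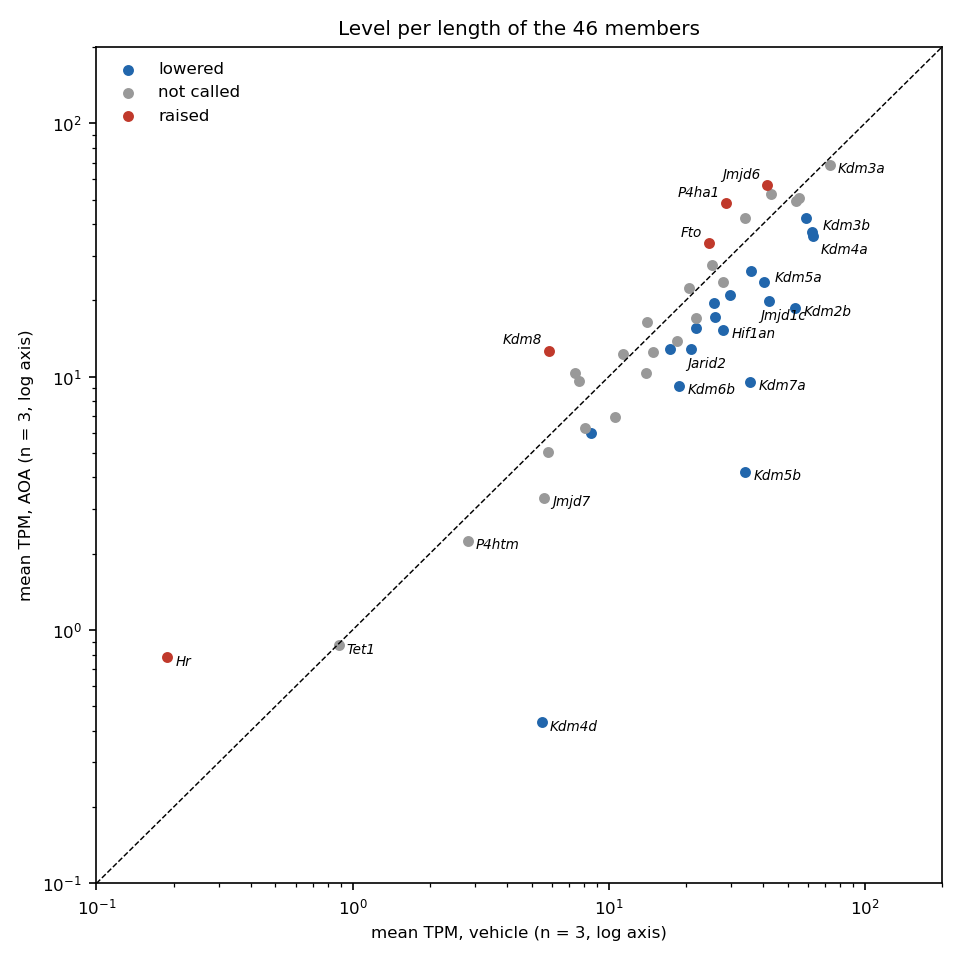
Mean TPM of the 46 members with AOA against vehicle (n = 3 libraries each, both axes logarithmic, the dashed line marks equal levels), coloured by call, with the more changed and some of the least abundant members named. Kdm5b falls from 34.0 to 4.22 TPM and Kdm4d from 5.47 to 0.432 TPM, while Kdm3a is the most abundant at 72.9 and 68.4 TPM.

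Levels per length ran from 0.189 to 72.9 TPM with vehicle, and 35 members had a mean of at least 10 TPM. After Kdm3a the highest with vehicle were Kdm4a (62.6 ± 5.64), Kdm3b (62.3 ± 5.65) and Kdm2a (58.9 ± 0.462), whose means differ by less than their spread. With AOA the order after Kdm3a was Jmjd6 (57.2 ± 3.67), Jmjd8 (52.4 ± 6.93) and Alkbh5 (50.6 ± 13.2), again within their spread, and the SD of Kdm3a itself, 21.6 TPM, exceeded its lead over them. Kdm5b went from rank 15 to rank 41 of 46 and Kdm7a from 13 to 35, and P4ha1 from 17 to 6. The median length was 4257.5 bases for the members and 2900 for all genes tested. Across the 46 members length and log2 fold change had a Spearman correlation of -0.417, and across all genes tested -0.109. Genes share their libraries and are not independent, so these correlations are descriptions. After removal of a smooth trend with length 23 members were called, 22 of them among the 24, and with the mouse as replicate block as well 21, of which 19 were among the 24.

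The second question was how genes around the members moved. Of 19 listed symbols of other 2-oxoglutarate-dependent dioxygenases, older names included, 10 were in the table. Of these 1 was raised and 3 lowered, so 40.0% were called, beside 53.0% of all genes. Of the HIF prolyl hydroxylases, Egln3 fell by 1.61 ± 0.28 on the log2 scale (edgeR adjusted p = 0.00127), while Egln1 (0.11 ± 0.13) and Egln2 (-0.03 ± 0.12) were not called. Of the ribosomal oxygenases, Riox1 rose by 0.80 ± 0.15 (edgeR adjusted p = 0.00177) and Riox2 fell by 0.38 ± 0.13 (edgeR adjusted p = 0.0354). The call of Riox2 was lost with the replicate block (edgeR adjusted p = 0.0503) and, at an adjusted p of up to 0.158, without any 1 vehicle library, AOA 1 or AOA 3. Phyhd1, a relative of Phyh, fell by 1.54 ± 0.31 (edgeR adjusted p = 0.00265). Asph, Hspbap1, P3h1 and Tmlhe were not called. Of the FAD-dependent lysine demethylases, which do not use 2-oxoglutarate, Kdm1b rose by 0.97 ± 0.13 (edgeR adjusted p = 0.000298) and Kdm1a was at 76.2 and 75.1 TPM (0.00 ± 0.14).

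Of 29 genes for enzymes that make or use 2-oxoglutarate, succinate, fumarate or 2-hydroxyglutarate 16 were raised, 2 lowered and 11 not called, with a median log2 fold change of 0.52. The shares were 55.2% raised and 6.9% lowered, beside 26.2% and 26.8% of all genes tested. Ldha, Phgdh, Mdh1 and Mdh2, all raised, are listed although their main reactions use none of the compounds named. The most raised were Psat1 (1.93 ± 0.26), a pyridoxal phosphate enzyme of serine synthesis that forms 2-oxoglutarate, Idh3a (1.60 ± 0.19), a subunit of the isocitrate dehydrogenase of the tricarboxylic acid cycle, and Ldha (1.38 ± 0.17), lactate dehydrogenase. The lowered genes were D2hgdh (-0.62 ± 0.16), which oxidises D-2-hydroxyglutarate, and Idh3b (-0.41 ± 0.14), whose call was lost at an adjusted p of up to 0.154 without vehicle 1, vehicle 3, AOA 2 or AOA 3. Of 27 listed symbols, older names included, of writers of histone lysine, DNA and N6-methyladenosine methyl marks 25 were in the table. Of these 6 were raised and 10 lowered, with a median of -0.07. The 24.0% raised were near the 26.2% of all genes tested, and 40.0% were lowered, beside 26.8%. The most raised were Suv39h2 (2.00 ± 0.23) and Suv39h1 (1.79 ± 0.13), which trimethylate lysine 9 of histone H3, and Dnmt1 (1.75 ± 0.22), the maintenance DNA methyltransferase. The most lowered were Ezh1 (-1.46 ± 0.14), a Polycomb methyltransferase of lysine 27, and Kmt2a (-1.43 ± 0.15) and Kmt2d (-1.09 ± 0.16), which methylate lysine 4. Ezh2, also a Polycomb methyltransferase of lysine 27, was raised (1.56 ± 0.14). It went from 68.2 to 197 TPM in the means, while Ezh1 went from 85.7 to 30.7 TPM.

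**Figure D5:**
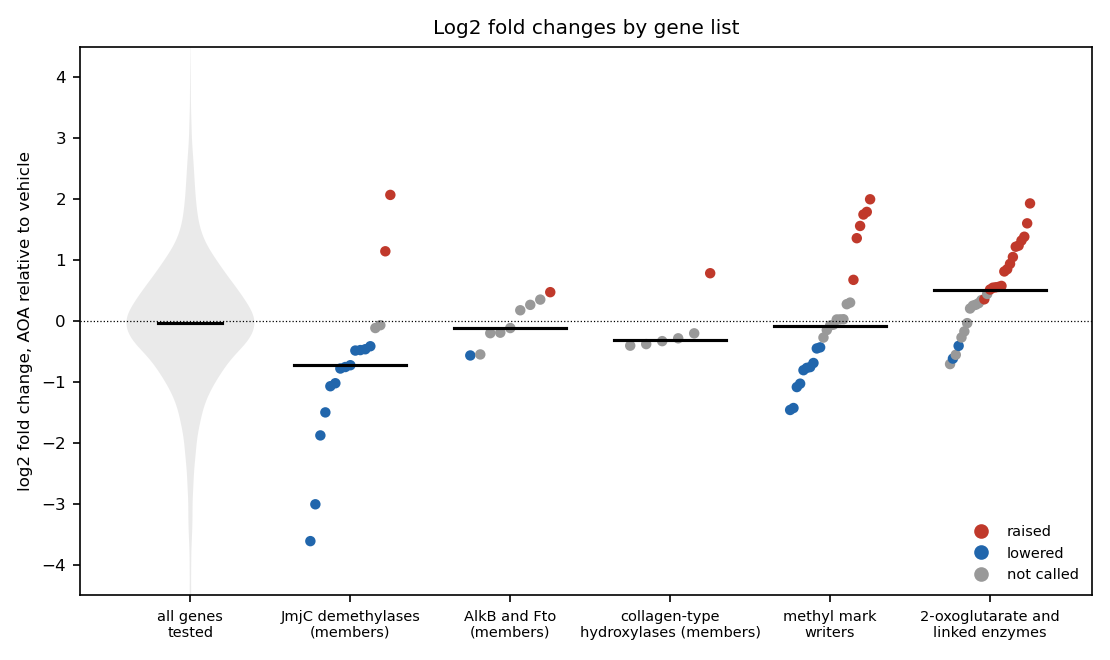
Log2 fold change (vertical axis, AOA relative to vehicle) of all 11759 genes tested as a grey shape and of single genes of 5 lists as points, with a black line at each median. The axis ends at 4.5 in each direction, beyond which 94 genes lie; the median is -0.73 for the JmjC demethylases, -0.12 for the AlkB genes and Fto, -0.31 for the secretory pathway hydroxylases, -0.07 for the writers of methyl marks and 0.52 for the 2-oxoglutarate-linked enzymes.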

How the data were processed

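Total RNA of CD8+ T cell cultures was made into stranded messenger RNA libraries and sequenced as paired-end reads. The deposited values are the authors' raw counts per gene, from STAR with its default parameters and uniquely mapped reads, beside a gene length. Per the labels, bcl2fastq, featureCounts and DESeq2 were also used and the build was mm10, while versions, annotation and the strand setting are not given in the sources used. Every column of per-sample values had a sample (0 without).

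They were fitted by edgeR 4.0.16 (R 4.3.3) with filterByExpr (minimum count 10), TMM and its robust quasi-likelihood test, and p-values were adjusted by Benjamini-Hochberg over all genes tested and a threshold of 0.05. CPM used TMM library sizes, and TPM came from the counts and lengths of the table. The SE is the log2 fold change over the root of F. The donor labels tie each vehicle culture to the AOA culture of the same mouse, and deviations from the group means correlated within mice with r of 0.087, 0.189 and 0.194 across genes. Alternatives used DESeq2 1.42.0, limma 3.58.1 voom, other scaling and filters, the mouse as replicate block, a length trend (spline of 4 df), each library left out, and a log2 fold change of at least 1. The fits were run on simulated counts in which a small part of the genes changed, without a mouse effect or a length trend. Shares, promoters and shared exons were not tested in this way.

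Members and lists were chosen with earlier results of these data known. Every member was named, with values in each library for the 14 of largest absolute log2 fold change. Genes outside the members came from the lists alone, all of the other dioxygenases and FAD demethylases and up to 3 called genes per direction of each other list. Ezh2, Idh3g, Phgdh, Mdh1, Mdh2 and the cell type markers were named besides. The promoters and their coordinates came from RefSeq on GRCm38.p6, which held 38 of the 46, and shared exons from GENCODE vM21. Of the 3 most raised and 3 most lowered members, those windows were printed that lay outside the annotated gene.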

Additional observations from a re-analysis of the deposited data

How the results depend on the processing

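The same 24 members were called with DESeq2, with limma voom, with median-of-ratios size factors and with total counts only. Over 16 refits at the same threshold 15 called members kept the call wherever they were tested, 9 lost it in at least 1, 6 uncalled members were called in at least 1, and 16 were called in none. A changed sign occurred in 8 members, each time with neither value called, most often in Tet1 (11 alternatives). With the mouse as replicate block 23 members were called, with Tet3 lost, and the block changed the call of no other member, while in the other lists it ended those of Riox2 and Idh3g (edgeR adjusted p = 0.0503 and 0.0596). Of the 17 JmjC genes 9 to 13 were lowered over the alternatives that kept the threshold, and of the other dioxygenases 1 to 3 were raised and 2 to 4 lowered. With at least 10 CPM in 3 libraries 36 members were tested, 3 were raised, and the median log2 fold change was -0.43, where fewer genes were tested. With a log2 fold change of at least 1 required, 2 members were raised and 6 lowered, or 4.35% and 13% of the members, beside 12.1% and 14.1% of all genes, so the lowered share was near the background. With 1 library left out, the members raised numbered 4 to 6 and those lowered 11 to 18, with a median between -0.38 and -0.29, and the 11 came without vehicle replicate 1, vehicle replicate 3 or AOA replicate 3. Without both vehicle replicate 2 and AOA replicate 1, added once the data had been seen, 7 were raised and 23 lowered, as calls over all genes also became more numerous (3976 and 3862). Depth limited Hr and Kdm4d, with single libraries at 3 and 10 counts. P-values measure the spread between cultures of 3 mice.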
